A study of Mus musculus with 18 samples.

Results

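The 8 genes described here encode enzymes of heme synthesis, namely *Alas1*, *Alas2*, *Alad*, *Uros*, *Urod*, *Cpox*, *Ppox* and *Fech*. They were found by gene symbol, as 8 of 20310 genes in a table of blood cell differentiation and 8 of 20495 genes in a table of reprogrammed fibroblasts. All 8 had a mean of at least 1 FPKM (a fragment count normalized for transcript length and library depth) in both tables, the limit used for every count over all genes.

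Heme is built in a chain of steps that begins and ends in the mitochondrion and passes through the cytosol in between. ALAS1 and ALAS2 are the isozymes of the rate-limiting first step, which makes aminolevulinate from glycine and succinyl-CoA. ALAS1 is found in all tissues and is repressed by heme, whereas ALAS2 is X-linked and belongs to the red cell lineage, whose hemoglobin takes up most of the heme of the body. ALAD then forms porphobilinogen, UROS closes the ring, UROD trims its side chains, CPOX and PPOX oxidise it, and FECH inserts the iron.

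The question addressed was how expression of this pathway differed along the path from embryonic stem cells to macrophages, and in fibroblasts given transcription factors of early blood. The stages came from a mouse ES cell line of strain 129 with a Brachyury-GFP reporter and were ESC, mesoderm (MES, Bry.GFP+ FLK1-), hemangioblast (HB, Bry.GFP+ FLK1+), hematopoietic progenitor (HP, CD41+) and macrophage (MAC, CD11b+). Each of the 5 stages was sequenced as 2 replicates, and the deposited table combines them into 1 value, so stage values carry no replicate error and no difference between stages was tested. The hemogenic endothelium stage was not analysed here. The 8 fibroblast libraries were from mouse embryonic fibroblasts (MEFs) of strain 129 and embryonic day 14.5, 1 library for each condition at day 12 and at day 21. uFIB was untreated, SL stands for Scl/Lmo2 (Scl is *Tal1*), SFGL for Scl/Fli1/Gata2/Lmo2 and FGL for Fli1/Gata2/Lmo2. The MEFs were wild type or carried iTal1-2A-GFP, in which rtTA and a TRE-TAL1 cassette switch on TAL1 with doxycycline, and the labels do not say which of these each library had. The supplemental methods describe lentiviral vectors for the other factors and a medium that held erythropoietin, and do not say whether the untreated cells were kept in it.

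The labels were checked against defining markers. *Pou5f1* was 383 FPKM in ESC and 0.0931 FPKM in MAC, *T* was highest in MES at 142 FPKM, *Kdr* in HB at 77.6 FPKM and *Itga2b*, which encodes CD41, in HP at 62.5 FPKM. The 6 macrophage markers summed to 1527 FPKM in MAC and to between 1.37 and 18.9 FPKM in the other stages. The red cell marker *Slc4a1*, the anion exchanger of the red cell membrane, was 12.1 FPKM in HP and at most 0.134 FPKM in the other stages, so the CD41+ gate held red cell transcripts. The 8 fibroblast markers summed to 7380.0 and 5756 FPKM in uFIB at day 12 and day 21. In these bulk samples fewer cells of a type and less RNA per cell cannot be told apart.

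Start site sequences from RefSeq, on the build GRCm38.p6, covered 7 of the 8 genes with 10 windows of 300 bases, each 250 bases before and 50 bases after a start. The following stretches are shown because *Alas2* and *Cpox* had the largest differences from untreated fibroblasts over both days in the limma fit given further on, and *Alas1* is the isozyme that peaked in another stage than *Alas2*. The *Alas2* stretch is chrX:150547167-150547416 on the plus strand and ends at the base before the start. Its capitals mark TTATCT, which is AGATAA on the other strand and begins 86 bases before the start. The *Cpox* stretch is chr16:58669958-58670207 on the plus strand, and its capitals mark TTATCA, which is TGATAA on the other strand and also begins 86 bases before the start. The *Alas1* stretch is chr9:106247908-106247933 on the minus strand, and its capitals mark the NRF1 motif, which begins at base 30 downstream of the start at 106247954.
Alas2: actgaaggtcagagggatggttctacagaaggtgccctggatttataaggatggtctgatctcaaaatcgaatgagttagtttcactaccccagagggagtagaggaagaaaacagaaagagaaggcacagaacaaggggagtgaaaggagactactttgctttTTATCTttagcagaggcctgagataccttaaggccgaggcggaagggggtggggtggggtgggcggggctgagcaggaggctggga
Cpox: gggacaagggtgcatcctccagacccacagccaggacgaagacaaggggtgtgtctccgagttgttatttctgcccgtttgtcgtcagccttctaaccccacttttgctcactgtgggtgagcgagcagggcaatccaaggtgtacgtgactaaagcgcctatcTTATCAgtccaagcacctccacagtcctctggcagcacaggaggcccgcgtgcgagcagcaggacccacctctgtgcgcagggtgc
Alas1: cacccaagGCGCATGCGCggcggtca

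Of all 32851 windows, 18.6% held AGATAA or TGATAA, the letters of GATA factors, on either strand. Counted by gene, with a match in any of its windows, 21.0% of 27025 genes did and 3 of the 7 enzymes with a window did (*Alas2*, *Cpox* and a further start of *Uros*). *Cpox* had an additional AGATAA on the other strand, 5 bases downstream of its start and outside the stretch shown. CACCC, bound by KLF factors, was in 57.5% of all windows. Counted by gene, it was in 59.8% of the 27025 genes and in 5 of the 7 enzymes, so it is common. Its matches include 3 adjoining copies that begin 40, 35 and 30 bases before the *Alas2* start on the other strand. TGAGTCA, an NFE2 motif, was in 5.20% of all windows and 5.95% of all genes, and in none of the 10. The NRF1 motif was in 0.971% of all windows and 1.07% of all genes, and in the windows of *Alas1*. No match overlapped a match of another motif in the windows of the 7 genes, and a match of letters is a description, not a site of binding.

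The isozymes of the first step peaked in different stages, *Alas2* in HP and *Alas1* in MAC. Over ESC, MES, HB, HP and MAC, *Alas1* (chr9:106233455-106247954) was 8.73, 6.0, 5.90, 5.90 and 127 FPKM. It was thus nearly level over ESC, MES, HB and HP and 21.6-fold higher in MAC than in HP. *Alas2* (chrX:150547417-150570622) in the same order was 0.356, 0.0700, 0.858, 35.2 and 0.316 FPKM. Its level in HP was 41.0-fold that in HB, the next highest stage. *Alas2* made up 3.92%, 1.15% and 12.7% of the summed *Alas1* and *Alas2* FPKM in ESC, MES and HB, 85.6% in HP and 0.248% in MAC. Exons of *Alas2* overlap those of *Apex2* on the other strand, and the sources used here do not say whether strand was used in counting, so levels below 1 FPKM may hold reads of either gene. Exons of *Alas1*, *Cpox* and *Ppox* also overlap those of *4930500F10Rik*, *Gpr15* and *B4galt3* on the other strand. Their levels may likewise hold reads of these genes.

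**Figure D1:**
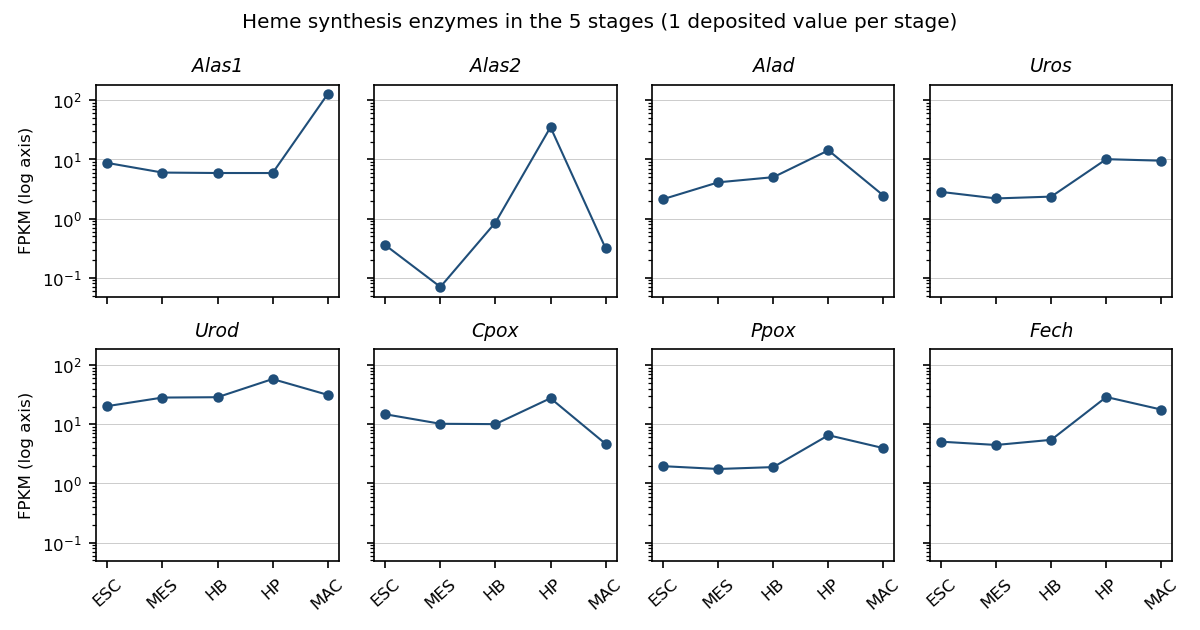
Expression of the 8 enzymes in ESC, MES, HB, HP and MAC, 1 panel per gene, as the authors' FPKM on a log axis. *Alas1* peaked in MAC at 127 FPKM, while the other 7 enzymes were highest in HP.

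The cytosolic enzymes that follow were highest in HP, each to its own extent. *Alad* (chr4:62505984-62520063), which joins aminolevulinate into porphobilinogen, was 2.14, 4.11, 5.02, 14.3 and 2.45 FPKM in ESC, MES, HB, HP and MAC. *Uros* (chr7:133686330-133709295), which closes the ring, was 2.83, 2.19, 2.35, 10.1 and 9.53 FPKM, so that HP and MAC stood above the earlier stages. They were nearly equal as deposited (-0.08 from HP to MAC on the log2(FPKM + 1) scale), and the difference was -0.74 once all columns were scaled to the same upper quartile. *Urod* (chr4:116990217-116994375), the decarboxylase, was 20.3, 28.3, 28.7, 58.3 and 31.5 FPKM and was the highest of the 8 in ESC, MES, HB and HP.

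The mitochondrial enzymes at the end of the chain also peaked in HP and then parted. *Cpox* (chr16:58670208-58680389) was 14.8, 10.2, 10.1, 27.6 and 4.68 FPKM over the 5 stages, lowest in MAC. *Ppox* (chr1:171276992-171281186) was 1.96, 1.76, 1.89, 6.55 and 3.96 FPKM in the same order. *Fech*, the ferrochelatase, was 5.09, 4.48, 5.47, 28.9 and 17.7 FPKM. *Ppox* and *Fech* in MAC therefore lay between HP and the earlier stages, while *Cpox* in MAC lay below all of them. Summed over the 8 enzymes, the level was 56.2, 57.2 and 60.3 FPKM in the early stages, 187 in HP and 197 in MAC. With all columns scaled to the same upper quartile the sums of HP and MAC were 209.8 and 133 FPKM, so their likeness depends on the scaling. The sums also differed in makeup, since *Alas1* and *Alas2* together gave 22.0% of the sum in HP, mostly *Alas2*, and 64.6% in MAC, nearly all of it *Alas1*.

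Counted at a fold of at least 2 on the log2(FPKM + 1) scale, 0 of the 8 enzymes were higher and 0 lower from ESC to MES, where 6.54% and 6.05% of 10817 genes were. From MES to HB the counts were again 0 and 0, beside 2.15% higher and 2.83% lower. From HB to HP, 6 of the 8 were higher and 0 lower, where 7.77% of all genes were higher and 8.01% lower. The differences were 4.28 for *Alas2*, 2.21 for *Fech*, 1.73 for *Uros*, 1.38 for *Ppox*, 1.37 for *Cpox* and 1.34 for *Alad* on that log2 scale. *Urod*, at 0.995, lay just below the limit of 1 and passed it after upper quartile scaling (7 of 8 higher, beside 8.62% of all genes), and *Alas1* was at -0.0011. The median of the 8 was 1.38 and that of all genes -0.12.

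From HP to MAC, 1 of the 8 was higher, beside 31.3% of all genes, and 3 were lower, beside 13% of all genes. *Alas1* was higher by 4.22 on the log2(FPKM + 1) scale, and *Alas2* fell by 4.78, *Cpox* by 2.33 and *Alad* by 2.14 in this count. *Urod*, *Fech*, *Ppox* and *Uros* differed by -0.87, -0.68, -0.61 and -0.08. The median over all genes was 0.36 as deposited and -0.21 once every column was scaled to the same upper quartile, which lowers every MAC level 1.67-fold relative to HP. Relative to the deposited median, *Alas1* was 3.86 higher and the other 7 enzymes lay between -5.14 and -0.43. After scaling, 6 enzymes instead of 3 were at least 2-fold lower, all except *Alas1* and *Uros*. Of all genes, 23.4% were at least 2-fold lower and 18.1% higher after that scaling. The signs of the 8 differences were the same under both scalings.

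**Figure D2:**
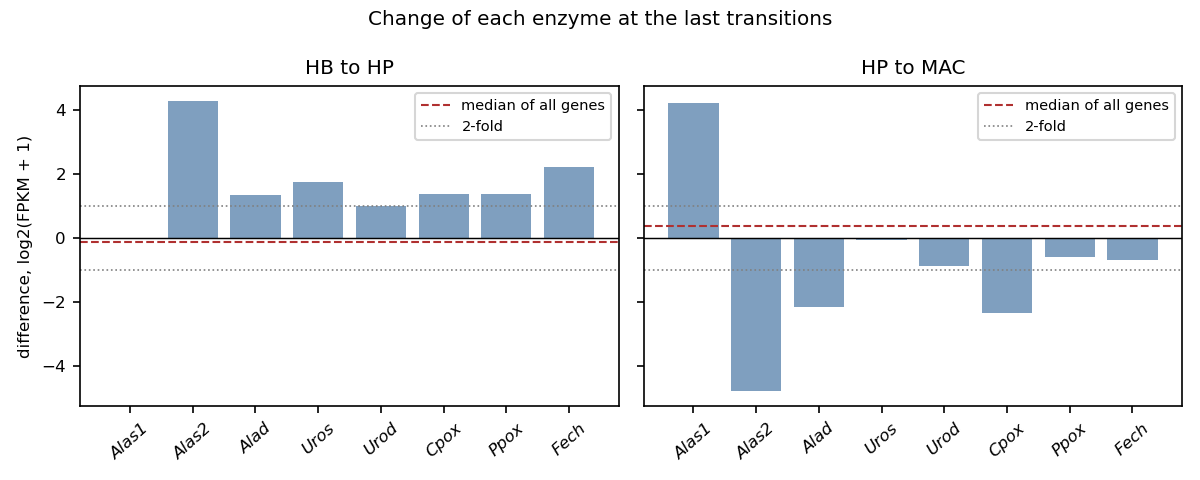
Difference of each enzyme on the log2(FPKM + 1) scale from HB to HP (left) and from HP to MAC (right), with bars from 0, a dashed line at the median of all genes and dotted lines at 2-fold. From HB to HP 6 bars pass the 2-fold line upward, and from HP to MAC *Alas1* stands at 4.22 while *Alas2* stands at -4.78.

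The stage table splits genes by transcription start site (TSS), and *Alad* was the only one of the 8 with more than 1 TSS, having 2. *Alad* is known to have separate housekeeping and red cell promoters, and the table does not name which TSS is which. The TSS labelled TSS14064 was 0.517, 1.21, 3.56, 12.3 and 2.22 FPKM from ESC to MAC. The TSS labelled TSS14065 was 1.62, 2.90, 1.46, 1.93 and 0.231 FPKM. The share of *Alad* from the former was thus 24.2%, 29.5%, 70.9%, 86.5% and 90.6% over these stages. Cufflinks estimates how reads are divided between start sites of 1 gene, and these shares carry no error.

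Genes that move heme and its precursors or supply iron-sulfur clusters were counted as a list of 15. Of these, 3 were at least 2-fold higher and 0 lower from HB to HP, with a list median of 0.15, beside 7.77% and 8.01% of all genes. All 15 were counted, 14 of which averaged at least 1 FPKM. They were *Slc25a37*, the mitochondrial iron importer (2.29 to 14.4 FPKM), *Abcb10*, its membrane partner (34.4 to 105 FPKM), and *Tmem14c*, a porphyrin carrier (41.5 to 127 FPKM). From HP to MAC, 4 were higher and 3 lower, beside 31.3% and 13% of all genes. After upper quartile scaling 2 were higher and 4 lower, beside 18.1% and 23.4% of all genes. *Tspo* was higher (42.5 to 255 FPKM), as were *Iscu*, the scaffold for iron-sulfur clusters (6.69 to 44.2 FPKM), *Nfs1* and *Pgrmc1* (the last pair only as deposited), and *Abcb10* was lower (105 to 13.5 FPKM), as were *Slc25a37* and *Abcb6*. *Tspo2* was listed at 0 in every stage.

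Genes of heme breakdown and export were counted over 6 genes. From HB to HP, 3 were at least 2-fold higher and 1 was lower, beside 7.77% and 8.01% of all genes. From HP to MAC 5 were higher and 0 lower, beside 31.3% and 13% of all genes. After upper quartile scaling 4 were higher from HP to MAC, beside 18.1% of all genes, *Blvrb* being the exception at 0.67. The 1 lower from HB to HP no longer passed. *Hmox1*, the inducible heme oxygenase, was 12.9 FPKM in HP and 399 in MAC. *Slc48a1*, a transporter that carries heme out of lysosomes, was 8.36 and 103 FPKM, *Hmox2* was 23.7 and 173 FPKM, and the biliverdin reductases *Blvra* and *Blvrb* were 9.20 and 56.6 FPKM in HP and 64.8 and 151 FPKM in MAC. MAC thus combined the highest *Alas1* of the stages with the highest levels of these 5 genes.

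Regulators of heme synthesis were counted over 10 genes. From HB to HP, 5 were at least 2-fold higher and 0 lower, beside 7.77% and 8.01% of all genes. *Gata1* was 1.07 FPKM in HB, 37.2 in HP and 0.884 in MAC, *Klf1* was 0.224, 28.4 and 0.339 FPKM, and *Nfe2* was 1.13, 54.5 and 4.63 FPKM. *Gfi1b* and *Zfpm1* completed the 5, and the same 5 genes were lower from HP to MAC, where 13% of all genes were lower and 31.3% higher. *Bach1*, a heme-sensing repressor (16.7 to 44.3 FPKM), and *Aco1*, whose product also acts as an iron-regulatory protein (12.5 to 40.2 FPKM), were at least 2-fold higher in MAC than in HP as deposited, and by 0.64 and 0.89 on the log2 scale after upper quartile scaling. The embryonic globins *Hbb-bh1*, *Hba-x* and *Hbb-y* were 5182, 1071 and 529.8 FPKM in HP and at most 2.70 FPKM in HB, and all 3 were lower in MAC. They were also present in ESC, at 29.9, 12.8 and 9.60 FPKM, and listed below 1 FPKM in MES.

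Markers of other cell types moved with these results. Of all genes, 7.77% were at least 2-fold higher from HB to HP, and 31.3% were higher and 13% lower from HP to MAC. Of 9 red cell markers, 8 were at least 2-fold higher from HB to HP and 8 lower from HP to MAC, with 7 of the 9 averaging at least 1 FPKM. *Tfrc*, the transferrin receptor, made up much of their sum, at 58.1 to 91.9 FPKM before HP, 144 in HP and 309 in MAC. Without it the other 8 summed to between 2.94 and 4.59 FPKM before HP, 104 in HP and 6.74 in MAC. Of 7 megakaryocyte markers, 3 of which averaged at least 1 FPKM, 4 were higher from HB to HP, and their sum was 98.4 FPKM in HP and at most 1.59 before it. In MAC that sum was 284 FPKM, of which *Pf4* gave 274. All 6 macrophage markers were higher from HP to MAC. Fibroblast markers summed to between 2.27 and 37.9 FPKM in the stages, highest in HP. The part of these cell types in the levels of the enzymes was not tested.

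In the MEF table the transgenes were examined first. *Tal1* was 0.0414 and 0.415 FPKM in uFIB at day 12 and day 21, 62.0 and 347 FPKM in SL, and 58.0 and 119 FPKM in SFGL. In the libraries labelled FGL it was 7.04 FPKM at day 12 and 0.0705 at day 21, although the label holds no Scl. *Lmo2* was 36.2 and 66.5 FPKM and *Gata2* 21.9 and 35.1 FPKM there, and *Fli1* was 8.29 FPKM at day 12 but 3.35 at day 21, beside 3.43 and 3.02 in uFIB. *Fli1* and *Gata2* were also above uFIB in SL, at 46.7 and 34.4 FPKM and at 68.8 and 62.6 FPKM. FPKM does not separate a transgene from the gene of the cell.

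Both isozymes of the first step were higher in the SL and SFGL libraries than in uFIB. At day 12, *Alas1* stood at 34.4 FPKM (uFIB), 189 (SL), 228 (SFGL) and 50.1 (the library labelled FGL). At day 21 the same order gave 45.8, 139, 142 and 47.6 FPKM. The 4 SL and SFGL libraries were at least 3.04-fold above uFIB of their day, and the FGL libraries were within 1.46-fold of it. *Alas2* in this order was 0.126, 53.2, 18.7 and 20.8 FPKM at day 12 and 0.265, 43.4, 44.2 and 0.215 FPKM at day 21. *Alas2* was therefore high in 5 of the 8 libraries, and FGL at day 12 was near SFGL of that day while FGL at day 21 was at the level of uFIB. Unlike in HP, *Alas1* remained above *Alas2* in all 8 libraries, and *Alas2* gave 22.0% and 23.7% of the sum of both in SL at the earlier and the later day. The share was 7.58% and 23.8% for SFGL, 29.3% and 0.450% for FGL, and 0.366% and 0.575% for uFIB.

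**Figure D3:**
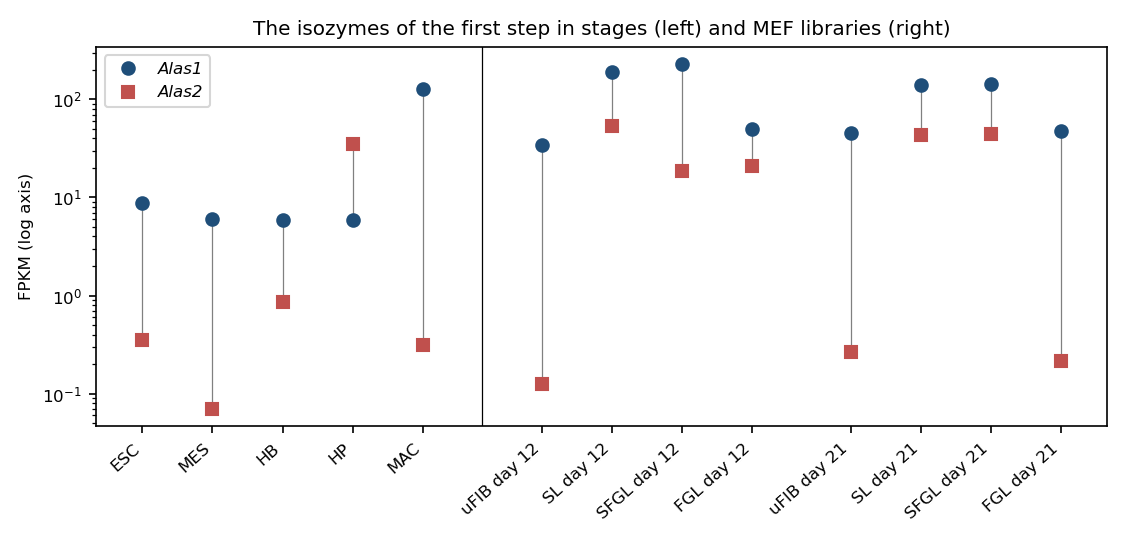
*Alas1* (circles) and *Alas2* (squares) in FPKM on a log axis, with the 5 stages on the left and the 8 MEF libraries on the right. The tables were normalized separately, so levels compare only within a side. *Alas2* lies above *Alas1* in HP, where it is 85.6% of the sum, and below it in every other column.

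*Cpox* also stood well above uFIB in SL and SFGL, by less than *Alas1* at day 12 and by more at day 21. In the order uFIB, SL, SFGL, FGL it was 12.7, 53.0, 37.9 and 22.8 FPKM at day 12. At day 21 it was 9.92, 100.1, 127 and 12.3 FPKM, so that SL and SFGL were 10.1-fold and 12.8-fold above uFIB.

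The other 5 enzymes differed less from uFIB in SL and SFGL. Listed again as uFIB, SL, SFGL, FGL, *Uros* was 5.10, 9.03, 8.21 and 6.40 FPKM at day 12 and 5.73, 13.3, 20.7 and 5.50 FPKM at day 21. *Urod* was 23.8, 40.0, 34.5 and 27.8 FPKM at day 12 and 21.5, 38.1, 43.2 and 21.4 FPKM at day 21. For both genes all SL and SFGL libraries lay above all uFIB and FGL libraries. *Ppox* was 11.3, 17.9, 15.1 and 11.3 FPKM at day 12 and 11.9, 21.8, 18.8 and 10.2 FPKM at day 21, again with no overlap of SL and SFGL with uFIB and FGL. The share of all genes that separate in this way was not counted, so the separation is not shown to be particular to these enzymes. *Fech* was 23.2, 45.0, 25.8 and 30.8 FPKM at day 12 and 27.2, 46.8, 52.4 and 24.1 FPKM at day 21. SFGL at day 12 was below FGL of that day for *Fech*. *Alad* was the lowest of the 8 in the SL and SFGL libraries, at 2.81, 4.37, 3.72 and 3.0 FPKM at day 12 and 5.73, 10.9, 8.83 and 4.16 FPKM at day 21. Its uFIB level at day 21 was above the SL and SFGL levels at day 12, so the groups overlapped across days.

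**Figure D4:**
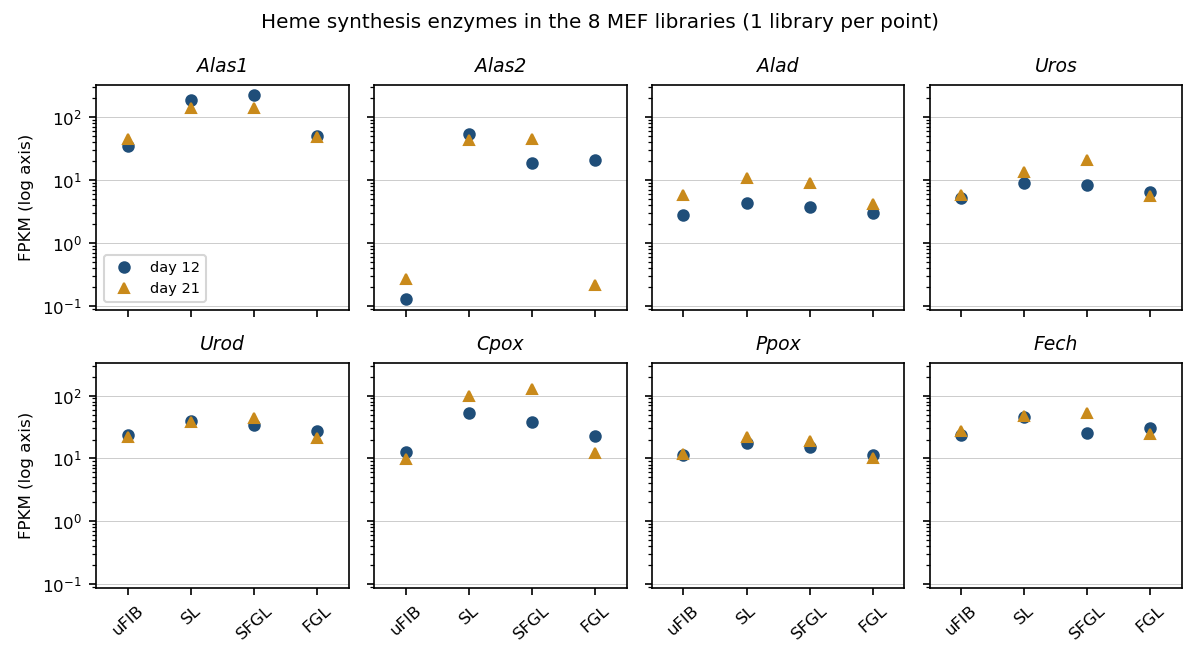
Expression of the 8 enzymes in the 8 MEF libraries, 1 panel per gene, as the authors' FPKM on a log axis, with circles for day 12 and triangles for day 21. *Alas2* spans 0.126 to 53.2 FPKM and is at the level of uFIB in FGL at day 21, at 0.215 FPKM.

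Within a day each condition had 1 library, so differences from uFIB of the same day carry no test. At day 12, 3 of the 8 enzymes were at least 2-fold higher in SL, where 13.8% of 11991 genes were, and 3 in SFGL, where 14.3% were. These were *Alas1*, *Alas2* and *Cpox* in both. None was lower, beside 13.5% of all genes in SL and 16.8% in SFGL. In FGL at day 12 only *Alas2* was higher, beside 2.91% of all genes, and 0 were lower, beside 0.292%. At day 21, 4 enzymes were higher in SL and 4 in SFGL, with *Uros* added, where 11.7% and 13.6% of all genes were, and 0 were lower, where 12% and 15.6% were. In FGL at day 21 the counts were 0 and 0, beside 0.409% of all genes higher and 0.342% lower. Between SFGL and SL, *Alas2* was at least 2-fold lower in SFGL at day 12 (-1.46), beside 0.567% of all genes, and 0 were higher, beside 0.167%. At day 21 the counts were 0 and 0, beside 0.659% higher and 0.409% lower. At day 12 the median difference of the 8 was 0.83 (SL), 0.56 (SFGL) and 0.34 (FGL), and at day 21 it was 0.96, 1.29 and -0.05, while the medians of all genes lay between -0.04 and 0.01. All of these comparisons share the uFIB library of their day.

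Over both days, limma was fitted on log2(FPKM + 1) with treatment and day as terms and 3 residual degrees of freedom. The days are not replicates, and a treatment effect that differs between days enters the spread. With Benjamini-Hochberg adjustment over 11991 genes, 6 of the 8 enzymes rose in SL against uFIB, where 25.4% of all genes were higher and 27.1% lower. *Alas1* rose by 2.00 ± 0.26 (SE, adjusted p = 0.00273), *Alas2* by 5.36 ± 1.23 (adjusted p = 0.0159) and *Cpox* by 2.59 ± 0.61 (adjusted p = 0.0176) in this limma fit. *Urod*, *Ppox* and *Alad* rose by 0.76 ± 0.17, 0.72 ± 0.14 and 0.66 ± 0.21, with limma adjusted p of 0.0147, 0.00841 and 0.0431. *Uros* and *Fech*, at 0.90 ± 0.33 and 0.84 ± 0.30, missed the threshold of 0.05 with limma adjusted p of 0.0668 and 0.0637.

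In SFGL against uFIB 6 enzymes also rose, where 28% of all genes were higher and 30.8% lower. *Alas1* rose by 2.15 ± 0.26 (limma adjusted p = 0.00164), *Alas2* by 4.64 ± 1.23 (0.0223), *Cpox* by 2.53 ± 0.61 (0.0167) and *Uros* by 1.14 ± 0.33 (0.0301). *Urod* and *Ppox* rose by 0.74 ± 0.17 and 0.51 ± 0.14, with limma adjusted p of 0.0136 and 0.0233. *Alad* and *Fech*, at 0.43 ± 0.21 and 0.53 ± 0.30, did not pass, with limma adjusted p of 0.129 and 0.183. The call for *Alas1* held in 13 of 13 alternative fits in each contrast, and that for *Alas2* in 9 of 13 in each. In SL the calls held in 11 of 13 for *Ppox*, 9 for *Cpox*, 8 for *Urod* and 4 for *Alad*, whose adjusted p ranged from 0.0160 to 0.338 over these limma fits. In SFGL they held in 10 of 13 for *Cpox*, 9 for *Urod*, 8 for *Ppox* and 6 for *Uros*. The counts rested on single libraries and moved both ways. The SL count fell when an SL or uFIB library was left out and rose when an SFGL or FGL library was. The SFGL count fell without SFGL day 21 or a uFIB or SL library, and rose without SFGL day 12 or an FGL library. All 8 libraries share 1 estimate of the spread. Over these fits *Alas2* differed from uFIB by 4.73 to 5.99 in SL and by 3.33 to 5.96 in SFGL.

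**Figure D5:**
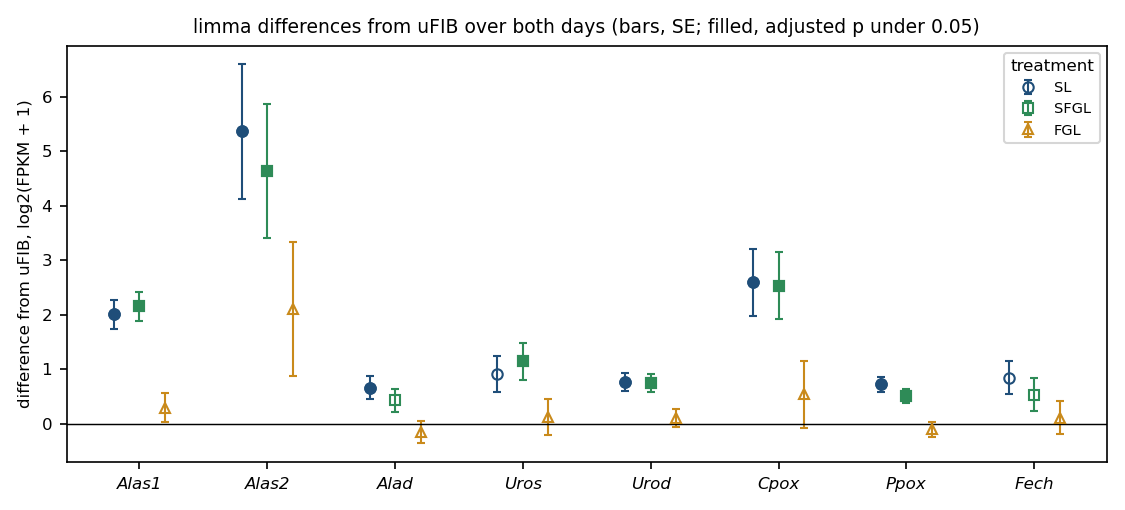
Difference from uFIB over both days for SL (circles), SFGL (squares) and FGL (triangles) on the log2(FPKM + 1) scale, from limma, with bars for the SE and filled symbols for an adjusted p under 0.05. *Alas2* has the largest differences in SL and SFGL, 5.36 and 4.64, and the widest errors, 1.23.

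Against uFIB, 0 of the 8 enzymes passed in the libraries labelled FGL by limma, where 2 of 11991 genes did (0.0167%) and 466 had an unadjusted p under 0.05. *Alas2* there was 2.11 ± 1.23 (limma adjusted p = 0.931), and the smallest unadjusted p of the 8 by limma was 0.142. The value for *Alas2* averages 4.27 at day 12 and -0.06 at day 21. That split between days enters the spread, so the fit does not show that *Alas2* was unchanged in FGL at day 12. Between SFGL and SL, 0 enzymes and 0 genes passed by limma (0%), with 1057 genes at an unadjusted p under 0.05 and none of the 8 enzymes among them. The difference for *Alas2* was -0.72 ± 1.23 and that for *Ppox*, the smallest unadjusted p at 0.167, was -0.22 ± 0.14. With 3 residual degrees of freedom these intervals are wide, and the results do not show that SL and SFGL act alike.

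From day 12 to day 21, 4 enzymes were at least 2-fold higher in SFGL and 0 lower, where 1.97% of all genes were higher and 2.62% lower. They were *Cpox* (1.72 on the log2 scale), *Uros* (1.23), *Alas2* (1.199) and *Alad* (1.06). In SL only *Alad* was higher, at 1.15, and 0 were lower, beside 1.59% and 2.82% of all genes. In uFIB the counts were 0 and 0, beside 1.72% and 1.18%, and *Alad* was 0.82 higher there. In FGL *Alas2* was lower, at -4.16, and 0 enzymes were higher, beside 3.97% of all genes lower and 2.94% higher. These differences compare single libraries, and none was tested.

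The related genes were counted by limma in the same way. Of the 15 genes of transport and iron-sulfur supply, 6 rose and 3 fell in SL, and 7 rose and 3 fell in SFGL. The shares over all genes were 25.4% higher and 27.1% lower in SL and 28% and 30.8% in SFGL. *Slc25a37* rose by 2.03 ± 0.26 and 1.69 ± 0.26, and *Tspo2*, a red cell gene of the TSPO family that was listed at 0 in both uFIB libraries, by 3.10 ± 0.45 and 2.85 ± 0.45 in SL and SFGL. *Pgrmc1* fell by 0.93 and 1.01, and *Clpx*, which activates ALAS in mitochondria, and *Iscu* fell by less. Of the 6 genes of breakdown and export, 3 rose and 0 fell in each, led by *Blvrb* (1.96 ± 0.17 in both). *Hmox1* was 109 and 145 FPKM in uFIB, 162 and 226 FPKM in SL and 153 and 224 FPKM in SFGL.

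Of 10 regulators tested, 7 rose and 1 fell in each contrast. The shares of all genes were 25.4% higher and 27.1% lower in SL and 28% and 30.8% in SFGL. *Nfe2* rose by 6.39 ± 0.88 in SL and 6.74 ± 0.88 in SFGL, *Klf1* by 4.84 ± 0.90 and 5.21 ± 0.90, and *Gata1* by 4.65 ± 0.76 and 5.12 ± 0.76. *Aco1* fell by 1.13 and 1.35. In the library labelled FGL at day 12, where *Alas2* was 20.8 FPKM, *Gata1* was 3.69, *Klf1* 5.19 and *Nfe2* 16.5 FPKM, and at day 21, where *Alas2* was 0.215 FPKM, *Gata1* was listed at 0, *Klf1* was 0.0700 and *Nfe2* 0.890 FPKM. All 3 embryonic globins rose in SL and SFGL, to sums of 85.5 and 195 FPKM in SL and 44.8 and 192 FPKM in SFGL, with 21.1 and 0.231 FPKM in FGL.

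Markers of several cell types moved with the enzymes. By limma, 25.4% of all genes were higher and 27.1% lower in SL, and 28% and 30.8% in SFGL. All 9 red cell markers counted rose in SL and SFGL by limma, and their sums at the earlier and the later day were 2.71 and 4.31 FPKM (uFIB), 156 and 186 (SL), 81.8 and 212 (SFGL), and 55.6 and 3.48 (FGL). All 6 megakaryocyte markers tested rose in both, from sums of 1.67 and 2.19 FPKM in uFIB to between 89.1 and 176 FPKM. All 4 macrophage markers tested rose in both. The filter removed the other markers of that list, *Csf1r* and *Fcgr1*, so this count leaves out those that stayed low. *Csf1r* was at most 1.92 FPKM in SL and SFGL, and *Fcgr1* stayed at or below 0.146 FPKM. Over all 6 macrophage markers the sums went from 9.86 and 9.43 FPKM in uFIB to between 44.8 and 103 FPKM. Of 8 fibroblast markers, 7 fell in SL and 8 in SFGL, to sums between 1281 and 2551 FPKM, and in FGL the sums were 6320 and 5835 FPKM. Of the pluripotency and mesoderm markers only *Sox2* was tested, and it fell in both. How far these cell types account for the enzymes was not tested.

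The genes whose profiles were most like those of the isozymes were named by the smaller of 2 Pearson correlations, over the 5 stages and over the 8 libraries, among 7961 genes. Those named for *Alas2* were *Slc4a1* (0.990), *Trim10* (0.983), *Epb4.2* (0.974) and *Ank1* (0.971), 3 of which are on the red cell marker list. For *Alas1* they were *Cd68* (0.993), *BC037034* (0.990), *Cd82* (0.990), *Cyb5r4* (0.988) and *Arpc3* (0.987). *Cd68*, a lysosomal protein of macrophages, was 146 FPKM in MAC and at most 2.21 FPKM in the other stages, and 26.2 and 30.1 FPKM in SL and SFGL at day 12 beside 2.93 in uFIB. These correlations describe columns that share controls and processing and were chosen as the highest of many.

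Among the 8 enzymes themselves, *Ppox* and *Fech* were closest over the 5 stages (r = 0.991), followed by *Uros* and *Fech* (0.978). *Alas1* and *Alas2* had r = -0.30 over the stages and 0.82 over the 8 libraries. *Alas1* and *Cpox* had -0.75 over the stages and 0.80 over the libraries. Across the MEF libraries the isozymes did not always go the same way. From day 12 to day 21 in SFGL, *Alas1* went from 228 to 142 FPKM while *Alas2* went from 18.7 to 44.2 FPKM. In FGL at day 12 *Alas2* was 20.8 FPKM beside 0.126 in uFIB, and *Alas1* was 50.1 FPKM beside 34.4.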

How the data were processed

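RNA-seq of 18 mouse samples was used, 10 of stages and 8 of MEFs. The authors deposited FPKM values, made with Cufflinks on mm10 (GRCm38). Per the study's methods, colour-space reads were aligned with SHRiMP, unique reads were kept and duplicates were removed with Picard. The submitters' processing notes list Bowtie and HOMER for ESC, Cufflinks for the other stages, and TopHat and Cufflinks for MEFs, so ESC may have been processed differently. Versions are not given in the sources used here. The supplemental methods describe RNA-seq density profiles made for each strand, but not whether strand was used in counting. The stage table gives 1 value per TSS with replicates combined, and 1 of its columns, of another series, was not used. The MEF table gives 1 value per gene and library. Genes with near-identical copies lose reads when only unique alignments are kept, and the highest values are lowered when duplicates are removed.

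TSS values were summed per gene. Differences were taken on log2(FPKM + 1), which understates changes of low genes, and counted at 2-fold. Counts over all genes took those averaging 1 FPKM or more, 10817 in the stages and 11991 in the MEFs, and 2-fold counts of lists took every listed gene. The authors' values are FPKM and not read counts, so the reads behind a value are unknown, and no count test was run. Relative to uFIB day 12, 15.1% to 19.2% of low values in a MEF library lay close to that library's most common ratio. That share does not give read counts. limma 3.58.1 (R 4.3.3) was fitted on all 8 MEF libraries (treatment and day, eBayes with trend, Benjamini-Hochberg over all genes, threshold 0.05). It was tested on simulated data of the SL contrast over 11991 genes, where it found 65.4% of genes changed by 1 and 87.1% of those changed by 2 on the log2 scale, with 5.63% of calls false. The simulation changed only a small part of the genes, none at low levels, in SL alone and with no day effect. In the real SL contrast 25.4% of genes were higher and 27.1% lower, so these rates may not carry over. No separate cultures are named for the libraries, so p-values measure only the spread between them. Alternatives were pseudocounts of 0.1 and 0.001, filters, upper quartile scaling, the highest TSS only, a fold of 1.5, another uFIB reference, no day term, no trend, and leaving out each library.

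Named genes were the 8 enzymes, genes of fixed lists past 2-fold or the limma threshold (at most 6 per list), and the 5 genes most like each ALAS isozyme with at least 5 FPKM in 1 column of each table. Some genes of these lists and rules are not reported here and were left out of the list counts and sums. The enzymes and lists were chosen with earlier results of these data known. *Flvcr1*, *Flvcr2*, *Ahsp* and the adult globins, and in the stages *Nrf1* and *Pdgfrb*, were not analysed here. Promoter sequences are RefSeq's, and gene overlaps are from GENCODE on the same build. Other steps ran in Python 3.11.15 with pandas 2.3.3, NumPy 2.4.6 and matplotlib 3.10.9.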

Additional observations from a re-analysis of the deposited data

Results flagged for a closer look

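Effects of opposite sign at day 12 and day 21 were found for several enzymes. Each rests on 1 library per condition and day, and none of the differences was tested. For FGL against uFIB, the effect at day 21 minus that at day 12 was -4.33 for *Alas2* on the log2(FPKM + 1) scale (4.27 at day 12 and -0.06 at day 21). The same quantity was -0.56 for *Fech*, -0.45 for *Alad*, -0.33 for *Uros*, -0.23 for *Urod* and -0.20 for *Ppox*, all with an effect above 0 at day 12 and below 0 at day 21. At day 12 and day 21 these effects were 0.39 and -0.17 for *Fech* and 0.07 and -0.38 for *Alad*. They were 0.28 and -0.05 for *Uros*, 0.21 and -0.01 for *Urod*, and 0.0008 and -0.20 for *Ppox*, so some of the signs rest on values near 0. For SFGL against SL the signs ran the other way, with 1.49 for *Alas2* (-1.46 at day 12 and 0.03 at day 21), 0.94 for *Fech*, 0.81 for *Cpox*, 0.72 for *Uros* and 0.38 for *Urod*. At day 12 red cell markers summed to 55.6 FPKM in FGL and 81.8 FPKM in SFGL, and at day 21 to 3.48 and 212 FPKM, and their part in these differences was not tested.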

How the results depend on the processing

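With pseudocounts of 0.1 and 0.001 the median difference of the 8 enzymes was -0.27 and -0.28 from ESC to MES, 0.10 and 0.10 from MES to HB, 1.61 and 1.65 from HB to HP, and -0.80 and -0.81 from HP to MAC. With columns scaled to the same upper quartile these medians were -0.22, -0.038, 1.46 and -1.48. Under that scaling 6 enzymes were lower from HP to MAC, beside 23.4% of all genes. With the highest TSS only, the HB to HP median was 1.47, and 1 enzyme (*Alad*) was higher from MES to HB. At a fold of 1.5, 1 enzyme was higher from ESC to MES and 1 from MES to HB, and 6 were lower from HP to MAC. With a mean of at least 5 FPKM, fewer genes were tested, and 382 of all genes were lower from ESC to MES, 125 were higher and 167 lower from MES to HB, and 512 were higher and 518 lower from HB to HP.

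In the MEFs the medians in SL, SFGL and FGL at day 12 were 0.88, 0.60 and 0.36 with a pseudocount of 0.1, 0.79, 0.53 and 0.39 after scaling, and 0.80, 0.55 and 0.28 against the mean of both uFIB libraries. At day 21 they were 1.06, 1.32 and -0.12, then 0.93, 1.29 and -0.13, then 1.17, 1.39 and -0.0056. With no filter on low values limma called 2 enzymes in SL and 1 in SFGL, and 0 genes in FGL, where 1 was called with no day term. The cause was not tested. Leaving out each library in turn gave 1 to 8 enzymes and 1713 to 3000.0 higher and 1864 to 3164 lower genes in SL, 1 to 7 enzymes in SFGL, and 0 to 22 higher genes in FGL. A lone library left in a condition is then assumed to vary like the others. No called difference of an enzyme changed sign under the alternatives run. No paired analysis was possible because the stage columns combine the replicates and the MEF libraries carry no replicate numbers. Day, which the treatments share, was a term of the fit, and without it limma called 5 enzymes in SL and 5 in SFGL, with *Alad* lost in SL and *Uros* in SFGL. Scaling of the list counts and of the summed enzymes was added after seeing the data. Without read counts, levels near 0, such as *Alas2* outside HP, have unknown precision.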
